A study of Mus musculus with 8 samples.

Results

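The genes described here encode RNA-binding proteins that mark immature or neuronal states: Lin28a and Lin28b, the Musashi genes Msi1 and Msi2, Igf2bp1, and the neuronal Elavl genes Elavl2, Elavl3 and Elavl4. They were read from every non-control probe that carries one of these symbols in the files, where Lin28a stands under its older symbol Lin28. This gave 8 of 28940 genes tested, with 14 of 55664 usable probes, and all 14 passed the filter on dim probes. No probe carries the symbol Celf4, a neuronal splicing and mRNA-binding factor usually grouped with them. Its 3 probes, listed under the older symbol Brunol4, were not counted among the 14 and are given beside them. The set was chosen by symbol with the scaled log2 signals of these genes in all 4 groups in view, so those values are a description and carry no p-values.

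LIN28A and LIN28B bind the hairpin precursors of let-7 microRNAs and block their maturation, and let-7 in turn represses Lin28 and many growth-promoting mRNAs. IGF2BP1 is an mRNA-binding protein of embryonic and tumour tissue, itself encoded by a let-7 target. Musashi proteins are translational regulators of neural stem and progenitor cells, while ELAVL2, ELAVL3 and ELAVL4 (HuB, HuC and HuD) bind AU-rich and U-rich stretches of mRNAs in newly formed neurons and are standard markers of neuronal commitment.

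RNA came from mouse embryos of strain C57BL/6 at E10.5, from the spinal neural tube, which gives rise to the spinal cord, and from the paraxial tissue that flanks it and gives rise to somites and their derivatives. Both tissues were cut from each embryo with a laser, in 2 wild-type and 2 mutant embryos, and hybridised to 1-colour arrays, giving 4 groups of 2 arrays. The mutant genotype is written fl/fl; cre/o in the labels and stands for a conditional loss of Geminin, a regulator of DNA replication licensing encoded by Gmnn. The Cre driver, and so the cells that were recombined, is not given in the sources used here.

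On the arrays, 71.5% to 77.9% of probes were well above background, with the lower shares in mutants in each tissue. The Gmnn probe read 12.35 and 12.24 in wild-type neural tube, 12.10 and 11.80 in mutant neural tube, 12.20 and 11.88 in wild-type paraxial tissue and 11.42 and 11.39 in mutant paraxial tissue. These are scaled log2 signals, the unit of every level below, in which a difference of 1 is a doubling; they are not comparable between probes. Mutant minus wild type, Gmnn differed by -0.35 ± 0.25 in neural tube and -0.63 ± 0.25 in paraxial tissue (log2 difference ± SE of the fit), without overlap and without passing the test over all genes. Whether this probe lies inside the deleted part is not known. In wild-type embryos, 12 of 15 muscle markers and 9 of 14 sclerotome markers were lower in neural tube by limma at an adjusted p of 0.05, and 2 of 8 motor neuron markers (Mnx1 and Olig2) and 1 of 13 progenitor markers (Dbx1) were higher. Each tissue thus carried markers of its label. In mixed tissue, fewer cells of a type and less RNA per cell cannot be told apart.

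Because Lin28 acts on let-7, the microRNAs it meets are shown first, from RefSeq (mouse assembly GRCm38.p6). The array carries no let-7 probe by name, so let-7 itself was not measured here. All 8 mature let-7 5p sequences in the table share 1 seed, bases 2 to 8, in capitals below. Shown are let-7a, here from chr13:48538239-48538260 (minus strand), let-7g from chr9:106178846-106178867 (plus strand) and let-7i from chr10:122985698-122985719 (minus strand).
let-7a-5p: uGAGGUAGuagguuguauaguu
let-7g-5p: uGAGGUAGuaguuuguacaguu
let-7i-5p: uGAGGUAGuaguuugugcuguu
The zinc knuckles of LIN28 bind the bases GGAG in the terminal loop of the precursors. Of the 11 let-7 hairpins listed, 9 hold that motif somewhere in the hairpin, including that of let-7g at chr9:106178840-106178927 (plus strand), where it is in capitals below. That of let-7b at chr15:85707319-85707403 (plus strand) does not hold it.
Mirlet7g hairpin: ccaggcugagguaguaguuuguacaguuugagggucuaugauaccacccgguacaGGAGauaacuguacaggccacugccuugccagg
Mirlet7b hairpin: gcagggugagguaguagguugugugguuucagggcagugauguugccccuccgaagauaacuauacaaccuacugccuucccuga

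Lin28a and Lin28b lay higher in the mutant embryos in both tissues, Lin28a on every mutant array. Lin28a, measured by 1 probe at chr4:133559245-133559304 (mm9, per the files), read 11.70 and 11.65 in the wild-type neural tubes and 13.35 and 12.35 in the mutant ones. In paraxial tissue its readings were 11.36 and 11.57 in wild type against 13.52 and 12.72 in mutants. All 4 mutant arrays stood above all 4 wild-type arrays. The difference was 1.17 ± 0.36 in neural tube, or 2.26-fold, and 1.66 ± 0.36 in paraxial tissue, or 3.15-fold. Mutant embryo 1 stood above mutant embryo 2 by 1.00 in neural tube and 0.80 in paraxial tissue, which is a large part of the genotype difference. All arrays of embryo 1 lay in slide row 1 and those of embryo 2 in row 2. Differences between embryos 1 and 2, here and below, thus cannot be told apart from slide row. Between the tissues of an embryo Lin28a differed little, by 0.21 ± 0.22 in wild type and -0.27 ± 0.22 in mutants (neural tube minus paraxial tissue).

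Lin28b, the paralog reported to act on let-7 in the nucleus, was read by 2 probes. The brighter one, at chr10:45096468-45096527, gave 10.70 and 11.90 in wild-type neural tube and 12.75 and 11.76 in mutant neural tube, so these groups overlapped. In paraxial tissue it gave 10.97 and 11.83 against 12.65 and 12.05, without overlap. The genotype difference was 0.95 ± 0.47 in each tissue. In both genotypes the order of the embryos was the same in the 2 tissues, with wild-type embryo 1 lowest. The other probe, at chr10:45140412-45140471, read 10.38 and 10.78 against 12.48 and 11.47 in neural tube, and 11.30 and 11.97 against 12.83 and 12.21 in paraxial tissue. On this probe the mutant arrays lay above the wild-type arrays in both tissues, by 1.39 and 0.88. It also lay lower in neural tube than in paraxial tissue, by a log2 difference of -1.06 in wild type and -0.55 in mutants, which the brighter probe did not show (-0.09 and -0.10).

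Igf2bp1 followed the same order at a smaller size. Its probe, at chr11:95824526-95824585, read 12.65 and 12.15 in wild-type and 13.63 and 12.85 in mutant neural tube, and 12.62 and 12.73 in wild-type and 13.37 and 12.79 in mutant paraxial tissue. Mutant and wild-type arrays did not overlap in either tissue, although the gap in paraxial tissue was narrow. The differences were 0.84 ± 0.35 and 0.41 ± 0.35, and embryo 1 again stood above embryo 2 in mutants, by 0.78 and 0.58.

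No gene of the array passed the genotype test in neural tube or in paraxial tissue (limma with Benjamini-Hochberg adjustment; 0% called among 28940 genes, with 1050 and 971 genes at an unadjusted p under 0.05). The 8 genes were no exception. Among them, 4 did not overlap between genotypes in neural tube (Lin28a, Msi1, Igf2bp1 and Elavl3), where 31.9% of all genes did not overlap. In paraxial tissue 5 did not overlap (Lin28a, Lin28b, Igf2bp1, Elavl3 and Elavl4), against 37.3% of all genes. Both counts use the brightest probe in either direction, with Elavl3 lower in mutants and the others higher. On the second Msi1 probe the genotypes overlapped in neural tube (16.77 and 16.15 in wild type, 16.82 and 16.64 in mutants). On the second Elavl4 probe they overlapped in paraxial tissue (11.64 and 10.25, 10.30 and 9.59), with the mutant mean lower. The other Lin28b probe did not overlap in neural tube, nor the dimmer Elavl2 probe in paraxial tissue. Lin28a and Igf2bp1 lay above wild type without overlap in both tissues, as did 8.7% of all genes. The genes were chosen with these values known, so the shares are given for scale.

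**Figure D1:**
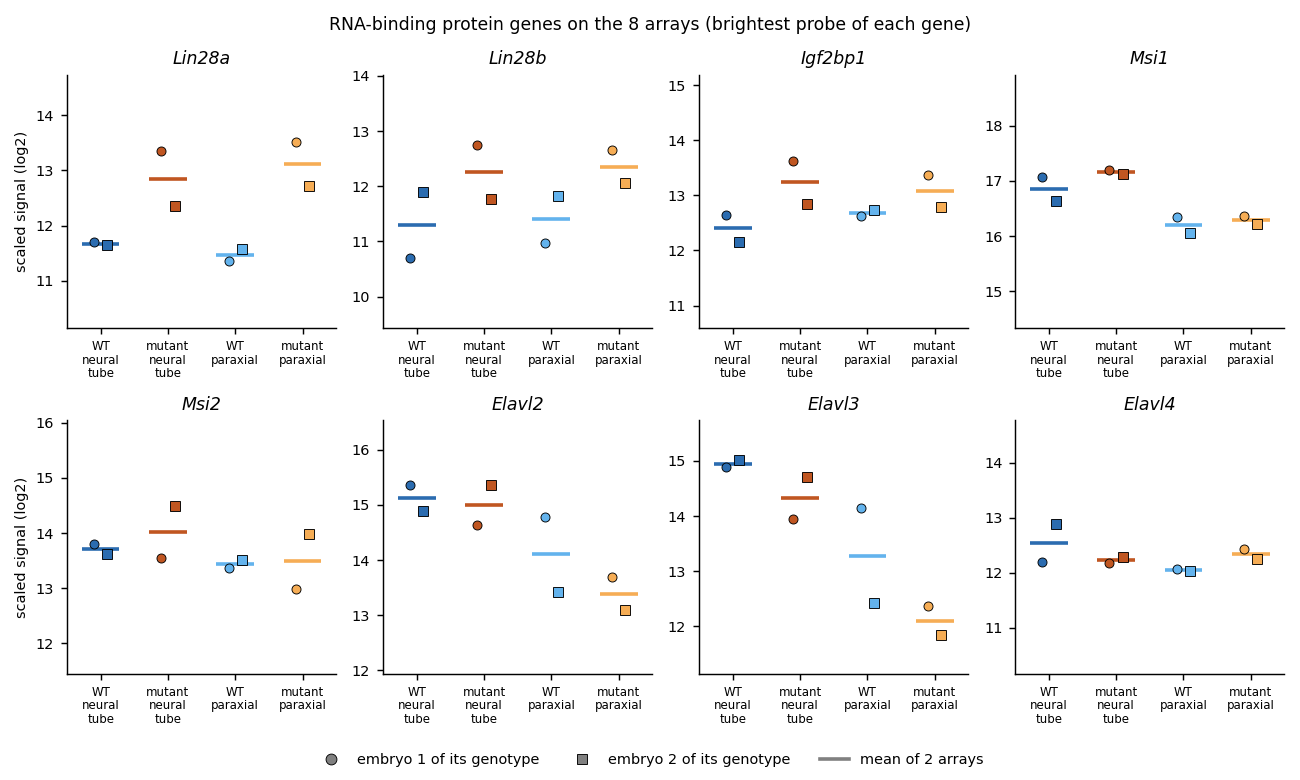
Scaled log2 signal of the brightest probe of each of the 8 genes on the 8 arrays, with a common axis span of 4.6 log2 units. Points are arrays, circles embryo 1 and squares embryo 2 of each genotype, and lines are means of 2 arrays. Lin28a and Igf2bp1 lie higher in mutants in both tissues, and Msi1, Elavl2 and Elavl3 lie higher in neural tube than in paraxial tissue.

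The promoters of the 2 Lin28 genes differ in base composition and in E-box content, the letters CANNTG read by basic helix-loop-helix factors such as MYC (CACGTG). They are shown because both genes lay higher in mutants. Each is the 250 bases before the start site in RefSeq, GRCm38.p6, minus strand, with E-boxes in capitals. Both strands are covered, since CANNTG reads the same on each, and CACGTG is one of its forms.
Lin28a, chr4:134018817-134019066: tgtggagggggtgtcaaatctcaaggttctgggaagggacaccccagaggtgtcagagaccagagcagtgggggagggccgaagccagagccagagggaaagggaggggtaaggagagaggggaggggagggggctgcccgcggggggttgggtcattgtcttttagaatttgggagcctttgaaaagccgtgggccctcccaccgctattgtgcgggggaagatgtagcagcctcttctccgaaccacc
Lin28b, chr10:45470202-45470451: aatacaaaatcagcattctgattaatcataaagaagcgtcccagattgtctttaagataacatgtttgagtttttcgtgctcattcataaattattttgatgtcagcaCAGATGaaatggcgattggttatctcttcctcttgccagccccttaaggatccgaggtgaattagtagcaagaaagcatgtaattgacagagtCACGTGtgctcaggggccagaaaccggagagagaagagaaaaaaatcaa
The Lin28a window holds 0 E-boxes and 61.2% G and C, and the Lin28b window holds 2 E-boxes, 1 of them CACGTG, and 39.2% G and C. Over 27025 promoters of the same length, 66.0% hold at least 1 CANNTG, 31.7% at least 2, and 6.0% hold CACGTG. These are counts of letters and do not show that a factor binds.

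The other let-7 genes of the pathway were read from a list of 21 reported let-7 target mRNAs, of which 20 were measured and Nr2e1 was not above background. In neural tube 17 lay higher and 3 lower in mutants, with a median log2 difference of 0.35 where the median of all genes was -0.01. In paraxial tissue 16 lay higher and 4 lower, with a median of 0.30 against 0.03. None passed the test in either tissue. Nr6a1, which encodes an orphan nuclear receptor, read 9.38 and 9.96 in wild-type and 11.82 and 10.62 in mutant neural tube, and differed by 1.55 ± 0.50 (limma adjusted p = 0.921). In paraxial tissue it differed by 0.91 ± 0.50 (limma adjusted p = 0.996), and the higher mutant reading was that of embryo 1, as for Lin28a. Myc, the growth-promoting transcription factor, differed by 1.51 ± 0.44 and 0.71 ± 0.44 (limma adjusted p = 0.921 and 0.996). Igf2bp3, a paralog of Igf2bp1, differed by 0.76 ± 0.33 in neural tube, and Cdc34, Arid3a and Ccnd2 by 0.19 to 0.70 in either tissue.

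Between tissues Myc was the target that passed. It fell in neural tube relative to paraxial tissue by 2.06 ± 0.28 in wild type (limma adjusted p = 0.0196) and by 1.26 ± 0.28 in mutants (limma adjusted p = 0.0496). Its readings of 10.19 and 11.29 in wild-type neural tube lay under 12.26 and 13.35 in wild-type paraxial tissue.

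Broadly expressed RNA-binding factors also lay higher in mutants, and they are given beside the let-7 targets for that reason. Of 17 such genes, which include the splicing regulator Ptbp1 and the hnRNP genes, 14 lay higher in mutants in neural tube, with a median of 0.28, and 17 of 17 did in paraxial tissue, with a median of 0.26. None passed. Hnrnpc, which encodes a nuclear RNA-packaging protein, differed by 0.53 ± 0.27 and 0.64 ± 0.27 (limma adjusted p = 0.921 and 0.996). Averaged over the list and set relative to its mean over all arrays, the let-7 targets stood at 0.28 and -0.01 in mutant neural tube against -0.39 and -0.09 in wild type. The broadly expressed factors stood at 0.24 and -0.08 against -0.27 and -0.14. On both lists mutant embryo 1 was above mutant embryo 2, the order of Lin28a, Lin28b and Igf2bp1. Surface ectoderm markers also differed by genotype, all 13 measured lying higher in mutant paraxial tissue with a median of 1.25, list means of 1.00 and 0.80 in mutants against -0.66 and 0.04, and Cdh1 not above background. Endothelial markers were higher there in 10 of 10 (median 0.65) and erythroid markers in 8 of 8 (median 0.77), while muscle markers were lower there in 14 of 15 (median -1.02). The part of these cells in the Lin28 and let-7 target values was not tested.

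Genes that process let-7 had smaller median differences. Of 14 listed factors, 10 lay higher and 4 lower in mutants in each tissue, with medians of 0.22 and 0.10. Xpo5, the exporter of microRNA precursors, differed most in neural tube, by 0.92 ± 0.36 (limma adjusted p = 0.921). Tut4 and Tut7, which encode the uridylating enzymes recruited by LIN28A, differed by 0.26 ± 0.31 and 0.11 ± 0.22 there. Dis3l2, the nuclease that degrades uridylated precursors, differed by -0.09 ± 0.24. Ago1, an Argonaute that holds mature microRNAs, rose in neural tube relative to paraxial tissue in mutants by 1.11 ± 0.20 (limma adjusted p = 0.0269). It was the single factor of the 14 to pass in any comparison. In wild type Ago1 differed in the same direction, by 0.57 ± 0.20, and did not pass.

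**Figure D2:**
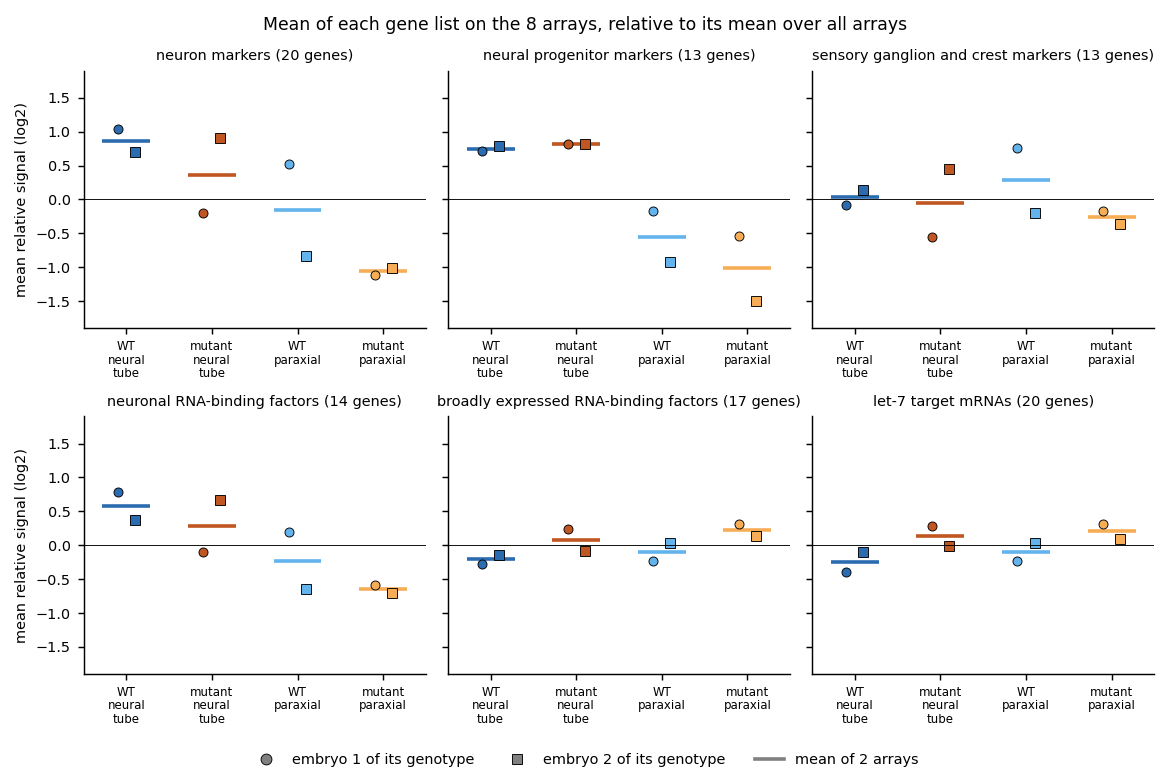
Mean scaled log2 signal of 6 gene lists on the 8 arrays, relative to the mean of each list over all arrays. Circles are embryo 1 and squares embryo 2 of each genotype, and lines are means of 2 arrays. Neuron and progenitor markers lie higher in neural tube, and wild-type paraxial embryo 1 (0.52) stands well above embryo 2 (-0.84) for neuron markers.

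Msi1 lay higher in neural tube than in paraxial tissue on both of its probes, in both genotypes. The brighter probe, at chr5:115904030-115904089, read 17.07 and 16.64 in wild-type and 17.20 and 17.13 in mutant neural tube. In paraxial tissue it read 16.34 and 16.06 in wild type and 16.37 and 16.22 in mutants. Every neural tube array was above every paraxial array. The tissue difference was 0.65 ± 0.15 in wild type, or 1.57-fold, and 0.87 ± 0.15 in mutants, or 1.83-fold. The second probe, at chr5:115890516-115890575, differed by 0.45 and 0.59. It read 16.77 and 16.15 in wild-type neural tube and 16.22 and 15.81 in wild-type paraxial tissue, where the 2 groups overlapped. In mutants it read 16.82 and 16.64 against 16.30 and 15.98, without overlap.

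The genotype difference of Msi1 was small, 0.31 ± 0.24 in neural tube and 0.09 ± 0.24 in paraxial tissue. In paraxial tissue its sign turned under quantile scaling, to -0.15.

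Msi2, the broader paralog of Msi1, differed little between genotypes, and its 3 probes did not rank the mutant embryos alike. The brightest, at chr11:88547287-88547346, read 13.81 and 13.62 in wild-type and 13.54 and 14.50 in mutant neural tube, and 13.36 and 13.52 against 12.99 and 13.99 in paraxial tissue. The mutant embryos stood 0.96 and 1.00 apart with embryo 2 higher. A second probe that shares 34 bases with it repeated this at 0.88 and 0.92. The third probe, at chr11:88152912-88152971 and far from both, read 14.01 and 13.67 in mutant neural tube and 13.75 and 13.30 in mutant paraxial tissue, with embryo 1 higher. The tissue difference of the brightest probe was 0.28 ± 0.24 in wild type and 0.53 ± 0.24 in mutants, and that of the third was 0.46 and 0.31. On all 3 probes the neural tube mean was the higher, and the 2 mutant embryos differed by more than the genotypes did (0.30 ± 0.38 and 0.05 ± 0.38).

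Of 7 reported Musashi-bound mRNAs, Cdkn1a, the cell cycle inhibitor p21, fell in neural tube relative to paraxial tissue by 1.56 ± 0.23 in wild type (limma adjusted p = 0.0241) and by 1.42 ± 0.23 in mutants (limma adjusted p = 0.0205). Numb, an inhibitor of Notch signalling and an early Musashi target, differed by -0.12 ± 0.18 and -0.11 ± 0.18. Robo3, an axon guidance receptor of commissural neurons, had the largest differences of the list, 2.25 ± 0.81 and 3.39 ± 0.81 between tissues (limma adjusted p = 0.212 and 0.0605) and -2.46 ± 1.29 and -3.60 ± 1.29 between genotypes (limma adjusted p = 0.921 and 0.996). It read 12.48 and 9.89 in wild-type paraxial tissue and 7.34 and 7.83 in mutant paraxial tissue. In neural tube it read 14.14 and 12.73 in wild type and 9.27 and 12.69 in mutants. There mutant embryo 2 was close to wild-type embryo 2, and mutant embryo 1 was far lower. No gene of this list passed between genotypes.

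Elavl2 and Elavl3 lay higher in neural tube than in paraxial tissue in both genotypes, and in paraxial tissue the array of wild-type embryo 1 stood above the other 3. Elavl3, read by 1 probe at chr9:21822471-21822530, gave 14.88 and 15.02 in wild-type and 13.94 and 14.70 in mutant neural tube. In paraxial tissue it gave 14.14 and 12.42 in wild type and 12.36 and 11.85 in mutants. The wild-type paraxial embryo 1 reading was thus within the range of the neural tube arrays. The tissue difference was 1.67 ± 0.47 in wild type, or 3.19-fold, and 2.21 ± 0.47 in mutants, or 4.64-fold. Without wild-type paraxial embryo 1 the wild-type value was 2.57, and without embryo 2 it was 0.77.

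Between genotypes Elavl3 differed by -0.63 ± 0.75 in neural tube and -1.17 ± 0.75 in paraxial tissue. The mutant arrays lay below the wild-type arrays without overlap in both tissues, as did 5.39% of all genes, but the paraxial value was -0.27 without wild-type paraxial embryo 1 and -2.08 without embryo 2.

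Elavl2 was read by 2 probes. The brighter, at chr4:90919992-90920051, gave 15.37 and 14.89 in wild-type and 14.64 and 15.36 in mutant neural tube, and 14.79 and 13.43 in wild-type and 13.69 and 13.10 in mutant paraxial tissue. Neural tube was above paraxial tissue by 1.02 ± 0.37 in wild type and 1.60 ± 0.37 in mutants, without overlap in either. Without wild-type paraxial embryo 1 the wild-type value was 1.56, and without embryo 2 it was 0.48. The genotypes overlapped in neural tube (-0.13 ± 0.59) and in paraxial tissue (-0.72 ± 0.59). The dimmer probe, at chr4:90917989-90918048, was well above background on 6 of 8 arrays and on 0 of 2 in mutant paraxial tissue. It gave 9.82 and 10.65 in wild-type and 8.84 and 10.29 in mutant neural tube, and 9.22 and 7.50 in wild-type paraxial tissue. On that probe mutant neural tube was at least 6.24-fold above mutant paraxial tissue, the lower bound set by the lowest signal well above background.

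Over all genes 2.46% passed the tissue test in wild type and 5.84% in mutants. Of the 8 genes, 0 passed in wild type and 2 in mutants (Msi1 and Elavl3), a count given for scale since these signals were in view when the set was chosen. In wild type 6 of the 8 did not overlap between tissues (Lin28a, Msi1, Msi2, Elavl2, Elavl3 and Elavl4), against 35.2% of all genes. Of these, Lin28a and Msi2 differed by 0.21 ± 0.22 and 0.28 ± 0.24. In mutants 3 did not overlap (Msi1, Elavl2 and Elavl3), against 36.2%. These counts use the brightest probe of each gene. On the second probes of Msi1 and Elavl4 the wild-type tissues overlapped. On the third probe of Msi2 they overlapped narrowly, with neural tube of embryo 1 and paraxial tissue of embryo 2 both at 13.61. Msi1, Elavl2 and Elavl3 lay higher in neural tube without overlap in both genotypes, as did 7.85% of all genes.

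**Figure D3:**
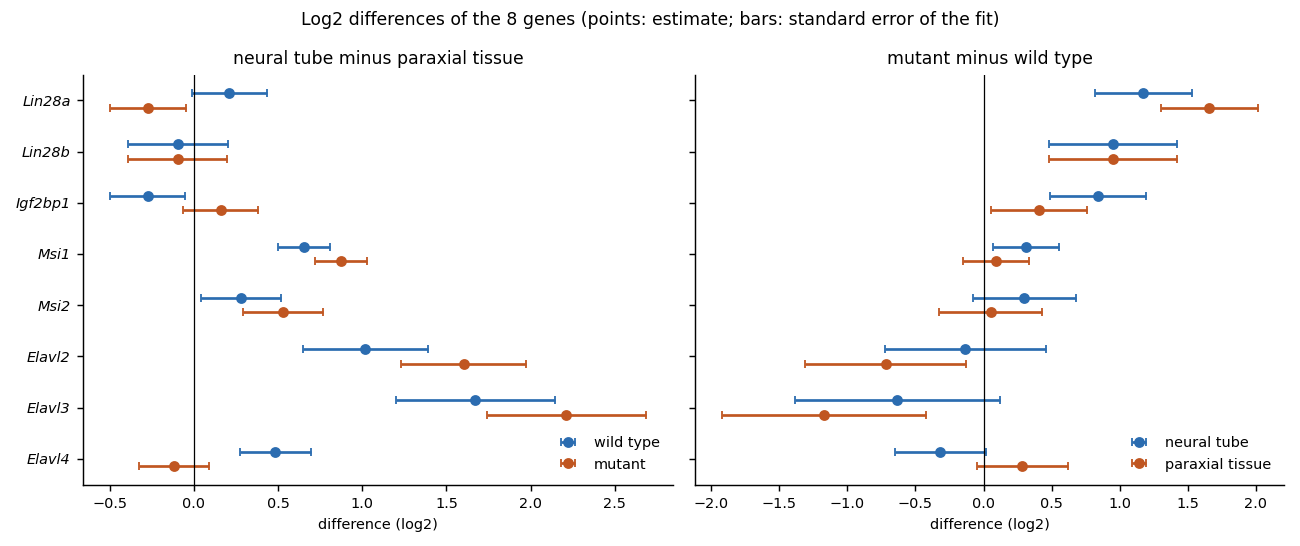
Log2 differences of the 8 genes between tissues (left, neural tube minus paraxial tissue) and between genotypes (right, mutant minus wild type). Points are estimates for the brightest probe and bars are standard errors of the fit. Elavl3, Elavl2 and Msi1 lie to the right of 0 on the left, and Lin28a, Lin28b and Igf2bp1 lie to the right of 0 on the right. At smaller sizes, Msi2 lies to the right of 0 on both sides and Msi1 also on the right.

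The promoter of Elavl3 carries 2 E-boxes in the 250 bases before the start site, 1 of them CAGCTG. It is shown as the counterpart of the Lin28 promoters, from RefSeq, GRCm38.p6, minus strand, with E-boxes in capitals.
Elavl3, chr9:22052024-22052273: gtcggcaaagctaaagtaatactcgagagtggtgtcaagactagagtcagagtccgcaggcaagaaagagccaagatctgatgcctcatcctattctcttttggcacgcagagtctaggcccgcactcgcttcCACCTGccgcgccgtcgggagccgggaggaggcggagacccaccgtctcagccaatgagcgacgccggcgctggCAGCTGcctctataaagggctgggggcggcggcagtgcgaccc
Of the 27025 promoters, 12.8% hold CAGCTG and, as above, 31.7% hold at least 2 E-boxes, so the count is common. Elavl2 has 6 listed start sites, and its windows hold 0 or 1 E-box and no CAGCTG. Some but not all of the 4 Elavl4 windows hold CAGCTG. Promoters of Msi1 and Igf2bp1 were missing from the reference used here and were not read. Msi2 has 3 listed start sites whose windows overlap almost wholly, and each window holds CACGTG. Whether any E-box has a part in the levels of these genes was not tested.

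Elavl4 gave different answers on its 2 probes, which lie close together on chromosome 4. The brighter, at chr4:109877455-109877514, was nearly level. It read 12.19 and 12.89 in wild-type and 12.17 and 12.28 in mutant neural tube, and 12.07 and 12.04 in wild-type and 12.43 and 12.25 in mutant paraxial tissue. The other, at chr4:109878558-109878617, read 12.35 and 11.39, 11.79 and 12.05, 11.64 and 10.25, and 10.30 and 9.59 in the same order. On the brighter probe the tissues differed by 0.48 ± 0.21 in wild type and -0.12 ± 0.21 in mutants, and on the other by 0.93 and 1.97. The genotype difference in paraxial tissue was 0.29 ± 0.33 on the brighter probe, while on the other the mutant mean was 9.94 and the wild-type mean 10.94. On the second probe, as for Elavl2 and Elavl3, wild-type paraxial embryo 1 stood above embryo 2, here by 1.39. Unlike them, its wild-type tissues overlapped and its mutant neural tube mean (11.92) was not below the wild-type mean (11.87).

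The probes also differ in sequence. A stretch of 30 of the 60 bases of each is shown with its longest run of alternating G and T in capitals.
Elavl4, brighter probe: tccttctgtTGTGTGTGTGTatgtgtacat
Elavl4, other probe: accttccttgaagGTGggtctttttaagat
The run is 11 bases long in the brighter probe and 3 in the other. Among 55681 probes, 142 (0.26%) hold a run of at least 11. Whether it has a part in the level readings was not tested.

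**Figure D4:**
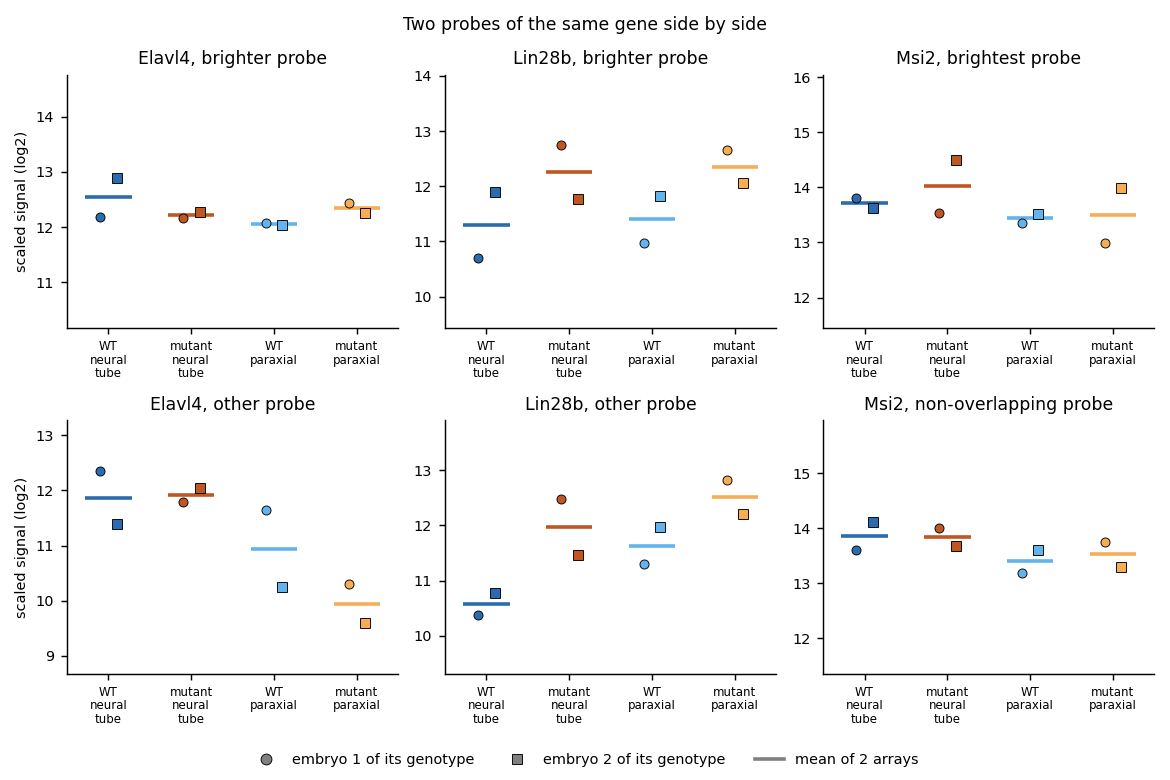
Scaled log2 signal of 2 probes each of Elavl4 (left), Lin28b (middle) and Msi2 (right) on the 8 arrays, with a common axis span of 4.6 log2 units. Circles are embryo 1 and squares embryo 2 of each genotype, and lines are means of 2 arrays. The Elavl4 probes disagree in paraxial tissue, and the Msi2 probes place the mutant embryos in opposite order.

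Celf4 was likewise split. Its brighter probe read 13.85 and 12.97 in wild-type and 12.87 and 13.42 in mutant neural tube, and 12.98 and 12.61 against 12.96 and 13.03 in paraxial tissue. A second probe read 12.22 and 11.47, 10.86 and 11.48, 11.47 and 9.77, and 10.09 and 10.01 in that order. Neural tube was above paraxial tissue by 0.62 ± 0.23 and 0.15 ± 0.23 on the first, and by 1.22 and 1.12 on the second. The third probe was well above background on 1 array.

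Other neuronal RNA-binding factors had the tissue order of Elavl2 and Elavl3. Of 14 listed genes, 11 lay higher in neural tube in wild type (median 0.88, 0 passed) and 12 in mutants (median 0.75), where 6 passed. Those 6 rose in neural tube relative to paraxial tissue in mutants by limma. Nova1, a neuronal splicing factor, rose by 1.94 ± 0.30 (limma adjusted p = 0.0184) and its paralog Nova2 by 1.30 ± 0.23 (limma adjusted p = 0.0278). Rbfox3, which encodes the neuronal nuclear antigen NeuN, rose by 2.18 ± 0.38 (limma adjusted p = 0.0259). Celf3, a relative of Celf4, rose by 1.83 ± 0.34, Srrm4, the activator of neuronal microexons, by 2.67 ± 0.57 and Khdrbs3 by 1.00 ± 0.18 (limma adjusted p = 0.0297, 0.0431 and 0.028). In wild type the same genes differed by 0.91 to 1.79 and did not pass, and the interaction between tissue and genotype passed for no gene of the array. Celf3 also was the single one of 8 further Elavl, IGF2BP and Celf family genes to pass, and Elavl1, the ubiquitous Elavl gene (HuR), differed by 0.16 ± 0.17 and 0.06 ± 0.17 between tissues.

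A pair of broadly expressed factors had the opposite tissue order. Mbnl1 and Mbnl2 are muscleblind splicing regulators that are abundant in muscle and mesenchyme. In mutants they fell in neural tube relative to paraxial tissue by 0.81 ± 0.17 and 1.01 ± 0.19 (limma adjusted p = 0.0425 and 0.0313). In wild type they differed in the same direction, by -0.60 ± 0.17 and -0.82 ± 0.19, and did not pass.

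Among 8 reported mRNAs bound by neuronal Elavl proteins, 7 lay higher in neural tube in each genotype, with medians of 0.35 and 0.32. The exception in both was Ache, at -1.21 ± 0.32 in wild type and -0.92 ± 0.32 in mutants, which did not pass. Nova1 and Satb1 passed in mutants, Satb1, a chromatin organiser, at 0.87 ± 0.19 (limma adjusted p = 0.0442). Between genotypes 6 of the 8 lay lower in mutants in each tissue, with medians of -0.32 and -0.54, and none passed. Without mutant embryo 1 the neural tube median was 0.07. Mapt, which encodes tau, differed by -0.91 ± 0.78 and -0.92 ± 0.78, and Gap43, a growth cone protein, by 0.12 ± 0.39 and 0.31 ± 0.39.

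Neuron markers varied with these values. Of 20 neuron markers, 19 lay higher in neural tube in wild type and 18 in mutants, with medians of 1.12 and 1.56, and 17 lay lower in mutants in each tissue, with medians of -0.50 and -0.97. Without mutant embryo 1 the neural tube median was 0.06. The list means were 1.04 and 0.70 in wild-type neural tube, -0.20 and 0.91 in mutant neural tube, 0.52 and -0.84 in wild-type paraxial tissue and -1.12 and -1.01 in mutant paraxial tissue. As for Elavl3, wild-type embryo 1 was the highest paraxial array and mutant embryo 1 the lowest neural tube array. Cntn2, an axonal adhesion molecule and 1 of the 4 brightest neuron markers, read 14.63 and 13.49 in wild-type and 11.96 and 12.65 in mutant paraxial tissue, while Snap25, Nhlh1 and Tubb3 differed there by 0.34, 0.22 and -0.36.

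Sensory ganglion and neural crest markers stood at 0.76 and -0.20 in wild-type paraxial tissue and -0.17 and -0.36 in mutant paraxial tissue. Pou4f1, a sensory neuron factor, read 14.54 and 12.76 in wild-type and 12.66 and 11.47 in mutant paraxial tissue, while Sox10, of crest and glial cells, was level at 14.81 and 14.59 against 14.81 and 14.77, and Foxd3 was not above background. The part of either cell type in the Elavl values was not tested. Progenitor markers stood between 0.71 and 0.82 on all 4 neural tube arrays, at -0.17 and -0.93 in wild-type paraxial tissue and at -0.54 and -1.49 in mutant paraxial tissue. Motor neuron markers stood at -0.35 and -1.18 in wild-type and -1.10 and -1.75 in mutant paraxial tissue, so on both lists wild-type embryo 1 was again the highest paraxial array.

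The genes whose profiles over the 8 arrays were most like those of Lin28a, Lin28b, Msi1, Igf2bp1, Elavl3, Elavl4 and Celf4 were sought among 25638 genes well above background on all arrays. The correlations describe 8 arrays that share 4 embryos, 1 slide and 1 scaling, and were picked as the highest of many. For Lin28a they were Prr13, a transcript listed by its Ensembl identifier alone (Pearson r = 0.99 each) and Gm9735 (r = 0.98), and for Lin28b they were Tfap4, Gmfb and Aif1l (r = 0.99 each). Msi1 was closest to A730089K16Rik, Nkx1-2 and Cercam (r = 0.99 each). Elavl3 was closest to Lrrc4b, Il4 and Slco4a1 (r = 0.99 each), and Igf2bp1 to 2 probes with no gene name (r = 0.997 and 0.996) and Mrpl42 (r = 0.995). The values for Elavl4 were lower, 0.97 for LOC100047565 and Tmem115 and 0.96 for Epha2, and for Celf4 they were 0.95 for Gm15292, an unnamed transcribed interval and C2cd4b.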

How the data were processed

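RNA of laser-captured tissue from 4 embryos was labelled with Cy5 and hybridised to 8 arrays on 1 slide, per the labels. The deposited intensity values are linear processed red-channel signals from Agilent Feature Extraction 11.0.1.1, per the file headers (the version also per the submitters' processing notes), on a design annotated on mm9. Control spots (3671 of 62976) and outlier spots were left out, and replicate spots averaged (17 of 55681 probes lost all their spots). The deposited intensities were put on the log2 scale, minus the 75th percentile of each array. One constant was added to all arrays, and no pseudocount was used. The authors' value table holds the same intensities, to within 0.497%, and served as an alternative. Array number limits the precision, since each group holds 2 arrays.

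A probe was kept where both arrays of any group read it well above background (42754), and the brightest stood for each of 28940 genes. Names came from RefSeq by accession (26045 probes) or symbol (3200), and 26419 kept that of the files. Some of the latter are probes with no gene name or transcribed intervals. Each such name counts as a gene in every share of all genes. Group means were fitted with limma 3.58.1 in R 4.3.3 (version 1.17.8 of data.table, Python 3.11.15, matplotlib 3.10.9) with the embryo as a random block (consensus correlation 0.603), eBayes and Benjamini-Hochberg adjustment at 0.05. P-values rest on 2 embryos per genotype. Both tissues of an embryo deviated together (r = 0.562 in wild type, 0.607 in mutants), and the labels name the shared embryo. Equal replicate numbers of different genotypes share a slide row (r = 0.291 in each tissue) and were not taken to pair embryos. Embryo number and slide row coincide on all arrays. The code was tested on simulated data for the tissue difference in wild type only, and the genotype comparisons were not tested in this way.

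The members and gene lists were chosen with earlier results of these data known. By rule, the text names every member and probe, Gmnn, up to 4 genes per list with the smallest p in a comparison (plus all that passed when 8 or fewer), up to 4 brightest genes per marker list with any dim marker, and the 3 genes most like each of 7 genes (the members other than Msi2 and Elavl2, and Celf4). Genes named for their known role (Tut4, Tut7, Dis3l2, Numb, Elavl1, Mapt, Gap43, Ptbp1) or to spell out a small count (Mnx1, Dbx1) were added after values were seen, as was the alternative of reading each member probe on its own. The reference carries no mm9 annotation, and probes are therefore placed by coordinates alone. Alternatives were quantile scaling, normexp (offset 50), other filters, the mean of all probes, other block terms, trended robust moderation, the value table, and leaving out each array or embryo; fits on fewer arrays kept the correlation of 0.603.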

Additional observations from a re-analysis of the deposited data

How the results depend on the processing

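The counts of genes that passed over the whole array moved with the model, and no alternative on all 8 arrays called any gene for genotype. The tissue difference in wild type gave 713 genes and that in mutants 1689. Without an embryo block they were 4 and 0, with a fixed embryo term 51 and 211, with no filter on dim probes 362 and 610, with normexp 1491 and 1830, and with trended robust moderation 1089 and 1993. The replicate block, in which equal numbers form a pair, gave 414 and 1026, and 0 for genotype in either tissue and for the interaction. Leaving out arrays or embryos gave 31 to 586 in wild type and 0 to 1587 in mutants, with 0 in mutants without mutant embryo 2. It gave 0 to 16 for genotype in paraxial tissue (16 without the array of mutant embryo 1, 7 without that of wild-type embryo 2, 5 without both arrays of mutant embryo 1), 0 to 19 for the interaction, and 0 for genotype in neural tube. The cause was not tested beyond the fewer arrays of these fits. Lin28a kept its sign in every alternative for genotype, at 0.68 to 1.67 in neural tube and 1.26 to 2.06 in paraxial tissue, as did Lin28b (0.35 to 1.55 and 0.52 to 1.38) and Igf2bp1 (0.45 to 1.23 and 0.12 to 0.70). Between tissues Elavl3 ran from 0.74 to 2.60 in wild type and from 1.58 to 2.85 in mutants, Elavl2 from 0.48 to 1.56 and from 0.94 to 2.26, and Msi1 from 0.52 to 0.78 and from 0.73 to 0.99. In either genotype Msi1, Elavl3 and Elavl2 each failed to pass in most of the 22 alternatives. This is given for scale only, since the signals were in view when the set was chosen. Between genotypes in paraxial tissue Elavl2 ran from -1.40 to -0.04. The median of the let-7 targets between genotypes ran from 0.11 to 0.49 in neural tube and from 0.14 to 0.50 in paraxial tissue, and that of the Elavl-bound mRNAs from -0.45 to 0.07, with the sign turned in 2 of 21, and from -0.68 to -0.08. Using the mean of its probes put Elavl4 at 0.93 between tissues in mutants and at -0.36 between genotypes in paraxial tissue, against -0.12 and 0.29. Of 22 alternatives, Nova1 passed in 16, Rbfox3 in 13, Nova2 in 12, Celf3, Khdrbs3 and Ago1 in 10, Mbnl2 in 8, Srrm4 and Satb1 in 7, Mbnl1 in 5 and Myc in 5 in mutants, while Myc passed in 12 in wild type and Cdkn1a in 10 in wild type and 13 in mutants.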
